A study of Mus musculus with 6 samples.

Results

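A set of 31 genes known from projection neurons of the striatum was followed in RNA sequencing of mouse hippocampus. The 31 genes were taken by symbol from a list, and all 31 were found among the 24421 genes of the deposited count table. Libraries came from 3 wild type and 3 CTCF conditional knockout (cKO) mice of strain C57/Bl, and the series calls the animals of each genotype biological replicates. CTCF binds DNA through zinc fingers and helps to set chromatin loops and their boundaries; the comparison asks what its loss does to hippocampal transcription. The labels give no Cre line, no age, no litter and no dissection date for either genotype, so the sources used here do not say in which cells Ctcf was deleted.

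The striatum lies beside the lateral ventricle and consists mostly of GABAergic projection neurons that receive dopamine. Neurons of the direct pathway carry the dopamine receptor Drd1 and the peptide precursor Tac1, and neurons of the indirect pathway carry Drd2, the adenosine receptor Adora2a and the peptide precursor Penk. Both kinds share a cyclic AMP cascade in which dopamine and adenosine receptors act on the adenylyl cyclase Adcy5. Ppp1r1b and Pde10a act further along the same cascade, and Rgs9 acts on its G proteins. Several of the genes, among them Foxp1, Bcl11b, Arpp21, Meis2, Pde1b and Actn2, are also known from neurons of the hippocampus itself.

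Promoters of 5 of the genes are shown because they carry a motif that bears on the set or belong to genes the results turn on. RefSeq promoter windows on GRCm38.p6 were matched for 23 of the 31 genes, with 40 windows between them. Each sequence is the 250 bases before the RefSeq start of its window, 5′ to 3′ on the gene's strand, and capitals mark a motif found by search on both strands. For Drd2 and Rarb that start lies inside the span of the gene, 49340360 to 49408177 on chromosome 9 and 16430839 to 17082331 on chromosome 14. The windows are chr10:41072291-41072540 (minus strand) for Gpr6, chr11:109298182-109298431 (minus strand) for Rgs9, chr14:16575477-16575726 (minus strand) for Rarb, chr19:10457448-10457697 (minus strand) for Lrrc10b and chr9:49340153-49340402 (plus strand) for Drd2.
Gpr6: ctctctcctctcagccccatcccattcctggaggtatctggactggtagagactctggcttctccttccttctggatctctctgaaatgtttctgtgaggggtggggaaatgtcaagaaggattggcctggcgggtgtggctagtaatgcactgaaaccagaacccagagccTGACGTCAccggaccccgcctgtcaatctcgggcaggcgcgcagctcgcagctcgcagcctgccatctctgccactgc
Rgs9: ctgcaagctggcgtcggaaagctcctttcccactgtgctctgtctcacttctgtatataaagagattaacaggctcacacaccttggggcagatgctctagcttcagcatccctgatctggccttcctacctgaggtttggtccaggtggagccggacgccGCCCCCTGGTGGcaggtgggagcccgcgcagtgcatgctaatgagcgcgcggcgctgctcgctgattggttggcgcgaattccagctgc
Rarb: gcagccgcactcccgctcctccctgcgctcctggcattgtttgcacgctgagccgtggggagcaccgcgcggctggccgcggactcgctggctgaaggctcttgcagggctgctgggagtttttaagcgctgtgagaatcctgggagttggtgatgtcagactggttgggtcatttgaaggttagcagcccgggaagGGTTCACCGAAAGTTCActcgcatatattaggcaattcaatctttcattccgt
Lrrc10b: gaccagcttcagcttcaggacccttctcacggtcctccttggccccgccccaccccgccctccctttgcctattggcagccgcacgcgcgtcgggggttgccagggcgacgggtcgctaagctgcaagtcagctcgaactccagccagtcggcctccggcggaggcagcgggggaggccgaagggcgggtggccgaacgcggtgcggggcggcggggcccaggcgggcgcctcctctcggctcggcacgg
Drd2: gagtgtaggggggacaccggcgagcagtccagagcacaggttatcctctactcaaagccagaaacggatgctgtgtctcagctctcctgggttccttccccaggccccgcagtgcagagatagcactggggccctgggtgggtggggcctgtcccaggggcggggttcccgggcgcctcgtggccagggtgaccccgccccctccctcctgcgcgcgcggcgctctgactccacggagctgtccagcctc
The capitals in Gpr6 are the cAMP response element TGACGTCA, 78 to 71 bases before the start, which was present in 588 of 32851 mouse promoter windows (1.79%). In Rgs9 they mark the core letters of the CTCF motif (CCA, AG and GGC, with 2 free bases before AG and 2 after it), read on the opposite strand 89 to 78 bases before the start and present in 797 windows (2.43%). In Rarb they mark a retinoic acid response element (GGTTCA and AGTTCA with 5 free bases between them), 53 to 37 bases before the start. This exact spelling was present in 2 windows (0.00609%). Other spellings of the element were not searched, so the share is not that of retinoic acid response elements in general. The 3 motifs do not overlap each other, each was found in 1 of the 23 matched genes, and none was found in the Drd2 and Lrrc10b windows. A match is a run of letters and not a measured binding site.

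Libraries held 14974750 to 23220455 counted reads, and 14916 genes passed the expression filter. Levels are given as CPM, counts scaled to a common library size. Ctcf itself was at 64.3, 65.2 and 70.3 CPM in wild type against 24.1, 34.5 and 35.8 CPM in cKO. Its log2 fold change was -1.08 with SE 0.15 (adjusted p = 0.0264 by edgeR's quasi-likelihood test with Benjamini-Hochberg adjustment over all genes tested, which is used throughout unless another is named). The test called 225 genes at an adjusted p below 0.05, 69.3% of them higher in cKO, whereas DESeq2 called 869 with 58.9% higher. Wild type replicate 2 and cKO replicate 1 stood apart from the other libraries. Markers of hippocampal fields were found in all libraries, but wild type replicate 2 had the lowest summed level of the 19 measured ones, 715 CPM against 1115 and 1219 CPM in the other wild type libraries. The dentate gyrus gene Prox1 was at 17.3 CPM there and at 42.8 to 46.2 CPM in the other 5 libraries. In cKO replicate 1 the 18 choroid plexus and ependymal markers were all at their lowest, with a summed level of 1013 CPM against 4434 and 8973 CPM in the other cKO libraries. Results on the striatal genes are therefore also given over the 4 libraries that leave out wild type replicate 2 and cKO replicate 1.

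All 31 striatal neuron genes had a negative log2 fold change, that is a lower fitted level in cKO than in wild type, with a median of -2.06. Of all genes tested 50.8% were negative, with a median of -0.00. The 31 genes were chosen with earlier results of these data known. Their counts set beside the shares of all genes are therefore a description and not a test of the set. By edgeR 2 of the 31 fell, Cd4 and Lrrc10b, against 0.463% of all genes called lower, and 0 rose against 1.05% called higher. The other 29 did not pass, although 27 of the 31 had an unadjusted p below 0.05 and 17 an adjusted p below 0.1, against 8.81% and 1.72% of all genes tested that were lower in cKO at the same limits. DESeq2 called 23 of the 31 lower, against 2.39% of all genes, and the authors' deposited table holds the same number, 23, against 1.65% of its genes. The 8 genes DESeq2 did not call were Pde10a, Adcy5, Rasd2, Arpp21, Foxp1, Meis2, Bcl11b and Sh3rf2. In 27 genes all cKO libraries lay under all wild type libraries, which held for 12.4% of all genes tested. The 4 genes whose groups overlapped were Rasd2, Arpp21, Foxp1 and Bcl11b.

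**Figure D1:**
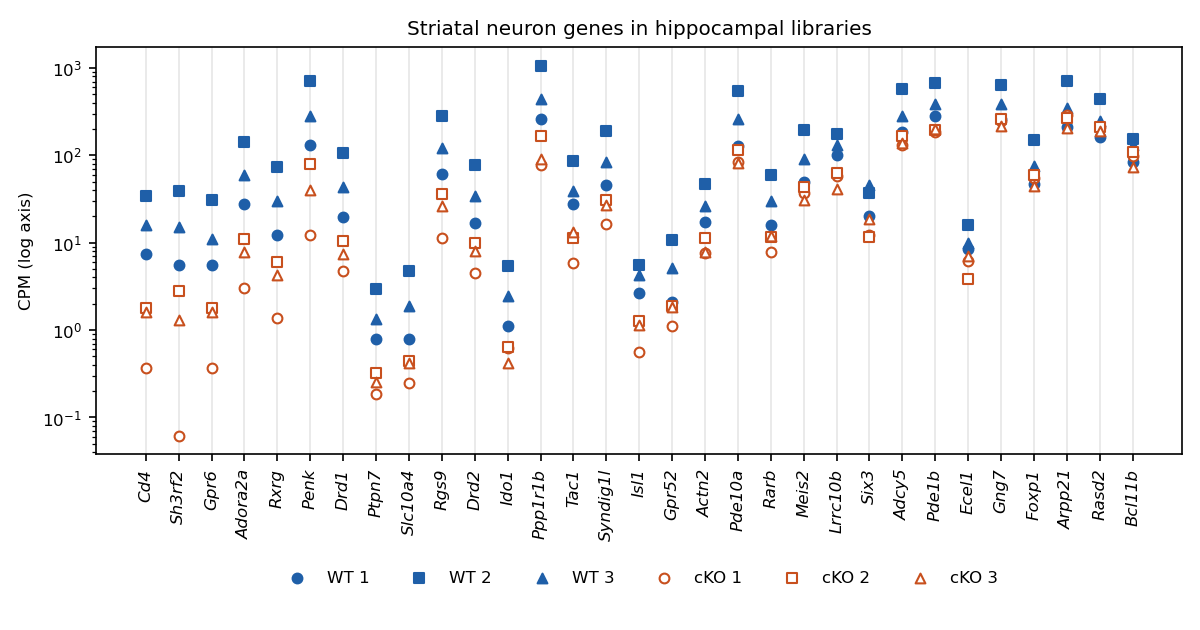
Level of each of the 31 genes in CPM (log axis) in the 3 wild type (filled) and 3 cKO (open) libraries, ordered by log2 fold change. Wild type replicate 2 (filled squares) is the highest of the 6 libraries for 30 genes, and cKO replicate 1 (open circles) is the lowest of the cKO libraries for 20.

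Wild type replicate 2 was the highest library for 30 of the 31 genes and cKO replicate 1 the lowest for 20. Leaving both out was thus bound to make most of the fold changes smaller. Over the 4 libraries without wild type replicate 2 and cKO replicate 1, all 31 log2 fold changes were again negative, but their median was -1.21. In that comparison 4 genes were called lower, Adora2a, Tac1, Gpr6 and Cd4, against 0.239% of all genes. Without wild type replicate 2 alone, Cd4, Lrrc10b and Pde1b were called lower, against 0.331% of all genes. Leaving out any of the other 5 libraries alone left 0 called, but only 0.00662% to 0.119% of all genes were called lower there. In those fits 26 to 31 of the striatal genes had an unadjusted p below 0.05. So did 2120 to 2848 of the 15079 to 15122 genes tested, in either direction. Over all 6 libraries limma-voom called 1, Lrrc10b, against 0.382%, and edgeR with no filter on low counts called 8, against 0.474%. With bulk tissue, fewer cells of a type and less RNA per cell cannot be told apart. The low levels in cKO bear on the filter: 24 of the genes reached the filter's level of 0.618 CPM in all 3 cKO libraries, 5 in 1 or 2 of them (Ido1, Isl1, Gpr6, Sh3rf2 and Cd4), and Slc10a4 and Ptpn7 in none. Those 7 needed the wild type libraries to pass.

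Receptors formed the group with the lowest median, a log2 fold change of -3.15 over 6 genes. All 6 had groups that did not overlap, against 12.4% of all genes tested in that direction. Drd1, the dopamine receptor that stimulates adenylyl cyclase (chromosome 13, 54051183 to 54055658, GRCm38, as for all positions), had 19.9, 108 and 43.3 CPM in wild type replicates 1, 2 and 3. In cKO replicates 1, 2 and 3 it had 4.78, 10.4 and 7.37 CPM. The wild type libraries were spread over a wider range than the gap between the groups, and the lowest of them still lay above the highest cKO library. Its mean was 56.9 ± 45.4 CPM in wild type against 7.51 ± 2.81 CPM in cKO (SD, n = 3 each), a log2 fold change of -2.92 (SE 0.61, adjusted p = 0.0687 by edgeR, DESeq2 adjusted p = 0.00299). Drd2, the receptor that inhibits adenylyl cyclase (chromosome 9, 49340360 to 49408177), had 16.8, 77.7 and 34.4 CPM in wild type against 4.53, 9.94 and 7.96 CPM in cKO. The libraries fell in the same order as for Drd1, and the log2 fold change was -2.52 with SE 0.56 (edgeR adjusted p = 0.0766, DESeq2 adjusted p = 0.00713). Without wild type replicate 2 and cKO replicate 1 the log2 fold changes were -1.86 for Drd1 (adjusted p = 0.0861) and -1.54 for Drd2 (adjusted p = 0.103).

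Adora2a, the adenosine receptor of indirect pathway neurons (chromosome 10, 75316877 to 75334792), had 27.5, 141 and 59.6 CPM in wild type against 3.04, 11 and 7.92 CPM in cKO. Again wild type replicate 2 was highest and cKO replicate 1 lowest, with no overlap. The log2 fold change was -3.37 with SE 0.67 (edgeR adjusted p = 0.0613), and over the 4 libraries it was -2.22 (adjusted p = 0.0482). Gpr6, an orphan receptor known from indirect pathway neurons, ranged from 5.62 to 31.2 CPM in wild type against from 0.37 to 1.78 CPM in cKO (log2 fold change -3.64 with SE 0.74 and adjusted p = 0.0651). Gpr52, an orphan receptor that raises cyclic AMP, had 2.12 to 10.7 CPM in wild type against 1.12 to 1.91 CPM in cKO, and its log2 fold change of -1.86 did not pass (SE 0.56, adjusted p = 0.145).

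Cd4, the co-receptor of helper T cells (chromosome 6, 124864693 to 124888247), was the receptor gene that fell by the edgeR test. It had 7.48, 34.2 and 15.9 CPM in wild type against 0.37, 1.78 and 1.6 CPM in cKO. The lowest wild type library held 4.19 times the level of the highest cKO library, the widest such gap among the 31 genes. Its mean was 19.2 ± 13.6 CPM in wild type against 1.25 ± 0.77 CPM in cKO (SD, n = 3 each), with a log2 fold change of -3.90 (SE 0.67, adjusted p = 0.0467). Cd4 and Gpr6 had the same counts in each cKO library, 6, 28 and 38. The T cell genes Cd3e, Cd3d, Cd3g and Cd8a were at or below 0.13 CPM in every library, while the pan-leukocyte gene Ptprc was at 2.32 to 2.87 CPM in wild type against 2.85 to 3.89 CPM in cKO. Of the 12 markers of microglia and T cells 8 were tested, 4 of them negative and 0 called. The call of Cd4 ended without wild type replicate 1 or 3 or any of the cKO libraries, with adjusted p between 0.0506 and 0.187, and with limma-voom (adjusted p = 0.111). Without wild type replicate 2 its log2 fold change was -3.20 (adjusted p = 0.0355), and without both that library and cKO replicate 1 it was -2.80 (adjusted p = 0.0314).

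The 3 genes of neuropeptides and their processing had a median log2 fold change of -2.31. Penk, the precursor of enkephalins (chromosome 4, 4133536 to 4138815), had 131, 706 and 280 CPM in wild type against 12.3, 79.4 and 40.2 CPM in cKO. Wild type replicate 2 was again the highest library and cKO replicate 1 the lowest, and the groups did not overlap. The log2 fold change was -3.08 (SE 0.79), but with this spread the adjusted p was 0.106 by edgeR and 0.0202 by DESeq2. Tac1, the precursor of substance P (chromosome 6, 7555061 to 7562978), had 27.5, 86.0 and 39.3 CPM in wild type against 5.90, 11.3 and 13.2 CPM in cKO. Here cKO replicate 3, not replicate 2, was the highest cKO library. The log2 fold change was -2.31 with SE 0.47 (adjusted p = 0.0641), and over the 4 libraries it was -1.44 (adjusted p = 0.0277). Ecel1, a membrane metalloprotease related to endothelin-converting enzymes, had 8.47 to 16 CPM in wild type against 3.82 to 7.12 CPM in cKO. It was the gene of this group with the smallest log2 fold change, -0.99 (SE 0.30, adjusted p = 0.148), and its lowest library was cKO replicate 2.

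The 9 genes of cyclic AMP, G protein and calcium signalling had a median log2 fold change of -1.25, 0 of them called by edgeR, 7 with an unadjusted p below 0.05 (8.81% of all genes tested in that direction) and 5 called by DESeq2 (2.39%). Ppp1r1b, the dopamine-regulated inhibitor of protein phosphatase (chromosome 11, 98348406 to 98357796), had 259, 1068 and 443 CPM in wild type against 78.1, 167 and 91.3 CPM in cKO. The order of the libraries was that of Drd1. Its mean was 590 ± 424 CPM in wild type against 112 ± 47.9 CPM in cKO (SD, n = 3 each), a log2 fold change of -2.40 (SE 0.54, adjusted p = 0.0796). Rgs9, which speeds the shut-off of G proteins, had 61.4 to 281 CPM in wild type against 11.2 to 36.3 CPM in cKO (log2 fold change -2.65 with SE 0.61 and adjusted p = 0.0833). Ptpn7, a tyrosine phosphatase best known from blood cells, had 0.79 to 2.93 CPM in wild type against 0.19 to 0.32 CPM in cKO, with only 3 to 6 counts in each cKO library (log2 fold change -2.70 at adjusted p = 0.0734).

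The enzymes of cyclic nucleotide turnover and the genes beside them had log2 fold changes nearer to 0. Pde10a, a phosphodiesterase of striatal neurons, had 128 to 551 CPM in wild type against 81.6 to 116 CPM in cKO (log2 fold change -1.74 at adjusted p = 0.121). The calcium-dependent phosphodiesterase Pde1b had 283 to 672 CPM in wild type against a narrow 186 to 201 CPM in cKO (log2 fold change -1.20 at adjusted p = 0.0901). Without wild type replicate 2 its log2 fold change was -0.78 and it was called lower (adjusted p = 0.0405). Adcy5, the adenylyl cyclase that dopamine receptors regulate, had 183 to 576 CPM in wild type against 132 to 166 CPM in cKO (log2 fold change -1.25 at adjusted p = 0.145), and Gng7, the G protein gamma subunit that works with it, had 264 to 645 and 214 to 261 CPM (log2 fold change -0.84 at adjusted p = 0.183). For both, wild type replicate 1 lay just above the highest cKO library. Rasd2, a small GTPase of striatal neurons, and Arpp21, a cyclic AMP-regulated phosphoprotein, had overlapping groups. Rasd2 was at 160, 437 and 245 CPM in wild type against 209, 211 and 191 CPM in cKO, so that wild type replicate 1 was the lowest of the 6 libraries (log2 fold change -0.46 at adjusted p = 0.453). Without wild type replicate 2 the log2 fold change of Rasd2 was 0.00525. Arpp21 was at 209, 716 and 352 CPM in wild type against 287, 265 and 206 CPM in cKO (log2 fold change -0.75 at adjusted p = 0.339).

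**Figure D2:**
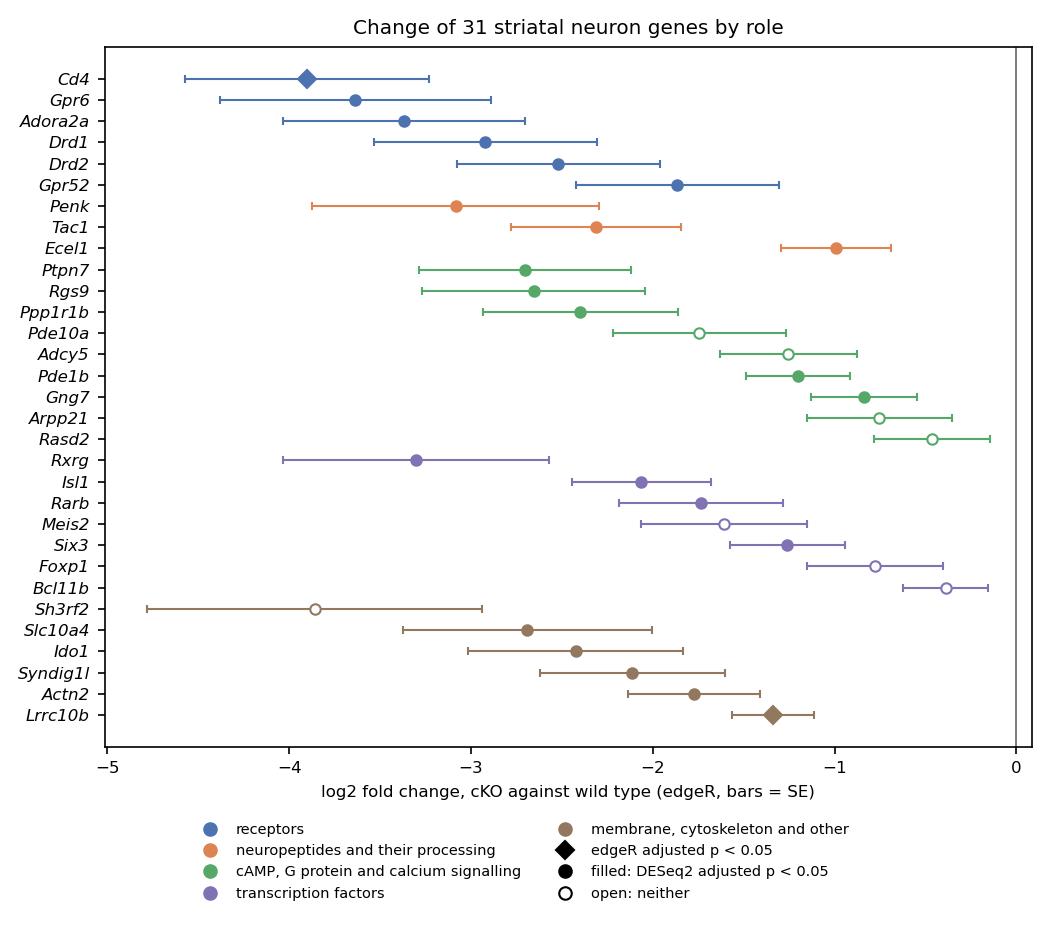
Log2 fold change of cKO against wild type with its SE for the 31 genes (edgeR), grouped by role; diamonds passed edgeR, filled circles passed DESeq2 only and open circles passed neither. All points lie left of 0, from -3.90 for Cd4 to -0.39 for Bcl11b, and the error bars tend to be longer where the change is larger.

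The 7 transcription factors had a median log2 fold change of -1.61, with 0 called by edgeR, 5 at an unadjusted p below 0.05 (8.81% of all genes tested in that direction) and 4 called by DESeq2 (2.39%). Rxrg, a retinoid X receptor, had 12.1 to 74.3 CPM in wild type against 1.37 to 6.05 CPM in cKO (log2 fold change -3.30 with SE 0.73 and adjusted p = 0.0766). Rarb, the retinoic acid receptor whose promoter is shown above with its response element, had 15.7 to 59.4 CPM in wild type against 7.82 to 12 CPM in cKO (log2 fold change -1.74 with SE 0.45 and adjusted p = 0.108). Isl1, which specifies direct pathway neurons in development, had 2.65 to 5.61 CPM in wild type against 0.56 to 1.27 CPM in cKO (log2 fold change -2.06 with SE 0.38 and adjusted p = 0.0506). Six3, a homeobox gene of the embryonic striatum, differed from the rest in its order: wild type replicate 3, at 45.6 CPM, was its highest library, above replicate 2 at 37.2 and replicate 1 at 20.0 CPM. In cKO it had 11.7 to 18.8 CPM (log2 fold change -1.26 at adjusted p = 0.1). Meis2, a homeobox gene, had 49.2 to 197 CPM in wild type against 30.5 to 43.5 CPM in cKO (log2 fold change -1.61 at adjusted p = 0.131). Foxp1, a forkhead gene, and Bcl11b, a zinc finger gene needed for striatal neurons to mature, had overlapping groups. Foxp1 ranged from 47.2 to 148 CPM in wild type against from 44.4 to 58.9 CPM in cKO (log2 fold change -0.78 at adjusted p = 0.297), and Bcl11b from 83.7 to 154 and from 74.6 to 111 CPM (log2 fold change -0.39 at adjusted p = 0.392).

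The last group, 6 genes of membrane, cytoskeleton and other roles, had a median log2 fold change of -2.27. The groups did not overlap in any of the 6, against 12.4% of all genes tested in that direction. Lrrc10b, a gene of leucine-rich repeats whose promoter is shown above (chromosome 19, 10455371 to 10457447), fell by the edgeR test. It had 101, 175 and 133 CPM in wild type against 57.6, 63.0 and 41.6 CPM in cKO. Its wild type libraries differed from each other by at most 1.73 times, the narrowest range of the 31 genes. The mean was 136 ± 37.3 CPM in wild type against 54.1 ± 11.1 CPM in cKO (SD, n = 3 each), a log2 fold change of -1.34 (SE 0.23, adjusted p = 0.045). The call ended without wild type replicate 1 or 3 or any cKO library (adjusted p between 0.0556 and 0.18), while without wild type replicate 2 it was -1.12 (adjusted p = 0.0405). Over the 4 libraries the log2 fold change was -1.17 (adjusted p = 0.061).

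Of the other 5 genes, Syndig1l, a membrane protein related to a synapse differentiation factor, had 45.5 to 192 CPM in wild type against 16.5 to 31 CPM in cKO (log2 fold change -2.11 at adjusted p = 0.0934). Actn2, the actin cross-linker alpha-actinin of dendritic spines and muscle, had 17.4 to 47.5 and 7.63 to 11.3 CPM (log2 fold change -1.77 with SE 0.36 and adjusted p = 0.0656). Sh3rf2, a protein with SH3 and RING finger domains, had 5.62 to 39.4 CPM in wild type but 1, 44 and 31 counts in cKO replicates 1, 2 and 3 (log2 fold change -3.86 with SE 0.92 and adjusted p = 0.0913). That single count in cKO replicate 1 made Sh3rf2 the gene with the widest spread within a genotype. Ido1, an enzyme that opens the ring of tryptophan, had 10 counts in each cKO library and 1.12 to 5.35 CPM in wild type (log2 fold change -2.42 at adjusted p = 0.0941). Slc10a4, a vesicle transporter of cholinergic and monoaminergic neurons, had 0.79 to 4.72 CPM in wild type against 4 to 10 counts in the cKO libraries (log2 fold change -2.69 at adjusted p = 0.104).

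Levels were compared between genes only as CPM per kilobase of exon, which could be computed for 30 of the 31 genes. On that scale Penk and Ppp1r1b were highest in wild type, with mean levels of 228 and 202 CPM per kb, followed by Gng7 at 114, Rasd2 at 88.4, Pde1b at 82.8 and Lrrc10b at 64.9 CPM per kb. In cKO the order of these mean levels differed: Rasd2 was at 64.1 and Gng7 at 63.6 CPM per kb, above Ppp1r1b at 38.3, Pde1b at 36.0, Penk at 26.9 and Lrrc10b at 25.7 CPM per kb. The receptors were lower, with Adora2a at 24.8 and 2.39, Drd2 at 16.9 and 2.94 and Drd1 at 15.7 and 2.07 CPM per kb in wild type and cKO. The mean levels of Drd1 and Drd2 were close, but within each of the 6 libraries Drd1 was below Drd2 on this scale, at 0.83, 0.97 and 0.88 times its level in wild type and 0.74, 0.73 and 0.65 times in cKO. The ranges of Penk and Ppp1r1b overlapped on this scale in wild type.

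Within each genotype the genes moved together across libraries. Wild type replicate 2 was the highest of all 6 libraries for 30 of the 31 genes, against 26.4% of all genes tested, and wild type replicate 1 was the lowest wild type library for all 31. Among cKO libraries replicate 2 was highest for 25 genes and replicate 1 lowest for 20, against 32.0% and 35.7% of all genes. The full order from wild type replicate 2 through 3 and 1 to cKO replicate 2, 3 and 1 held for 17 of the 31 genes (54.8%), against 193 of all 14916 genes (1.29%). The highest wild type library exceeded the lowest by a median of 4.01 times over the 31 genes (1.73 to 7.0), against 1.23 times over all genes tested. In cKO the same ratio had a median of 1.71 for the 31 genes against 1.19 for all genes. The ratio of the lowest wild type library to the highest cKO library had a median of 1.55 and ran from 0.73 to 4.19. It was above 1 in 27 of the 31, against 12.4% of all genes tested. The spread inside wild type was larger than the gap between the nearest libraries of the groups for each of the 31 genes.

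**Figure D3:**
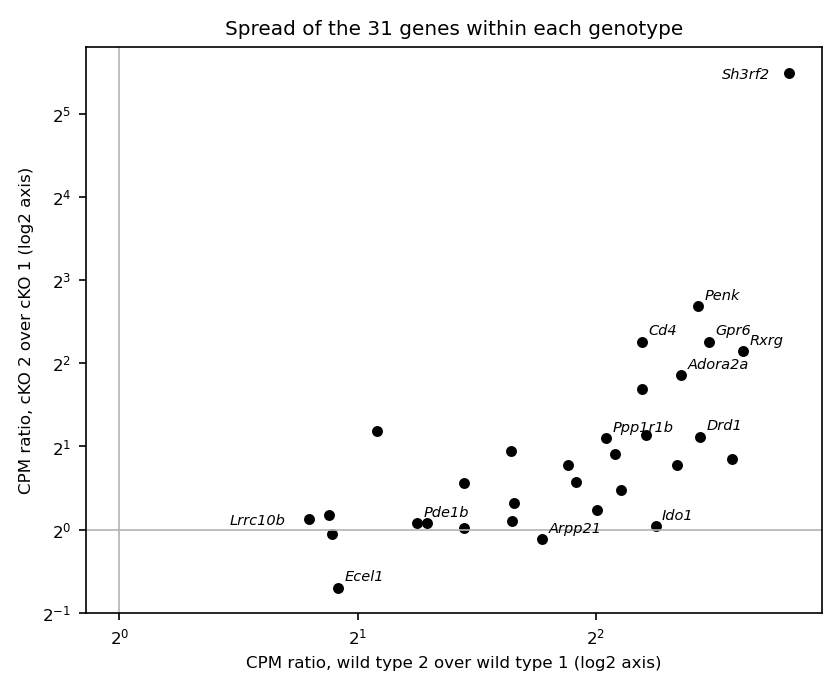
For each of the 31 genes, the CPM ratio of cKO replicate 2 to cKO replicate 1 against that of wild type replicate 2 to wild type replicate 1 (both axes log2). Adora2a, Rxrg and Gpr6 have a wide range in both genotypes, Ido1 has one in wild type but a cKO ratio of 1.03, and Lrrc10b, Ecel1 and Pde1b lie near the lower left.

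Genes with a wider range among wild type libraries tended to have one among cKO libraries too, with exceptions such as Ido1, Slc10a4, Gpr52, Pde10a and Meis2, which were 4.01 to 5.94 times as high in wild type replicate 2 as in 1 but 1.03 to 1.80 times as high in cKO replicate 2 as in 1. Across the 31 genes the log2 ratio of wild type replicate 2 to 1 and that of cKO replicate 2 to 1 had a Pearson r of 0.667 and a Spearman rho of 0.696 (0.674 and 0.665 over the 30 genes without Sh3rf2). Genes are not independent replicates and share these 4 libraries, so this is a description with no p. The 6 genes also known from hippocampal neurons had a median log2 fold change of -0.99, and 3 of them had groups that did not overlap. The other 25 had a median of -2.40, and 24 of them did not overlap. Of all genes tested, 12.4% did not overlap in the lower direction. Direct pathway genes (Drd1, Tac1 and Isl1) had a median of -2.31 and indirect pathway genes (Drd2, Adora2a, Penk and Gpr6) a median of -3.23. The difference between these subsets was not tested.

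Ratios between genes of one library do not depend on how many reads the library has, and they differed less between libraries than the levels did. Drd1 counts were 1.18, 1.38 and 1.26 times those of Drd2 in wild type and 1.05, 1.04 and 0.93 times in cKO, although Drd1 itself varied 22.5 times between libraries and Drd2 17.2 times. Adora2a over Drd2 was 1.63, 1.81 and 1.73 in wild type and 0.67, 1.11 and 0.99 in cKO. Penk over Drd2 was 7.80, 9.08 and 8.15 in wild type and 2.73, 7.99 and 5.05 in cKO. Here the groups overlapped, with cKO replicate 2 above wild type replicate 1. For the indirect pathway both ratios were nearly even in wild type and uneven in cKO, with cKO replicate 1 lowest. Rgs9 over Pde10a was 0.48, 0.51 and 0.46 in wild type and 0.13, 0.31 and 0.32 in cKO. Ppp1r1b over Pde10a was 2.02, 1.94 and 1.70 in wild type and 0.94, 1.44 and 1.12 in cKO. Tac1 over Drd1 was 1.39, 0.80 and 0.91 in wild type and 1.23, 1.09 and 1.79 in cKO, with overlapping groups. With 3 libraries against 3 an exact permutation test of such a ratio cannot go below 0.10, and none was run.

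**Figure D4:**
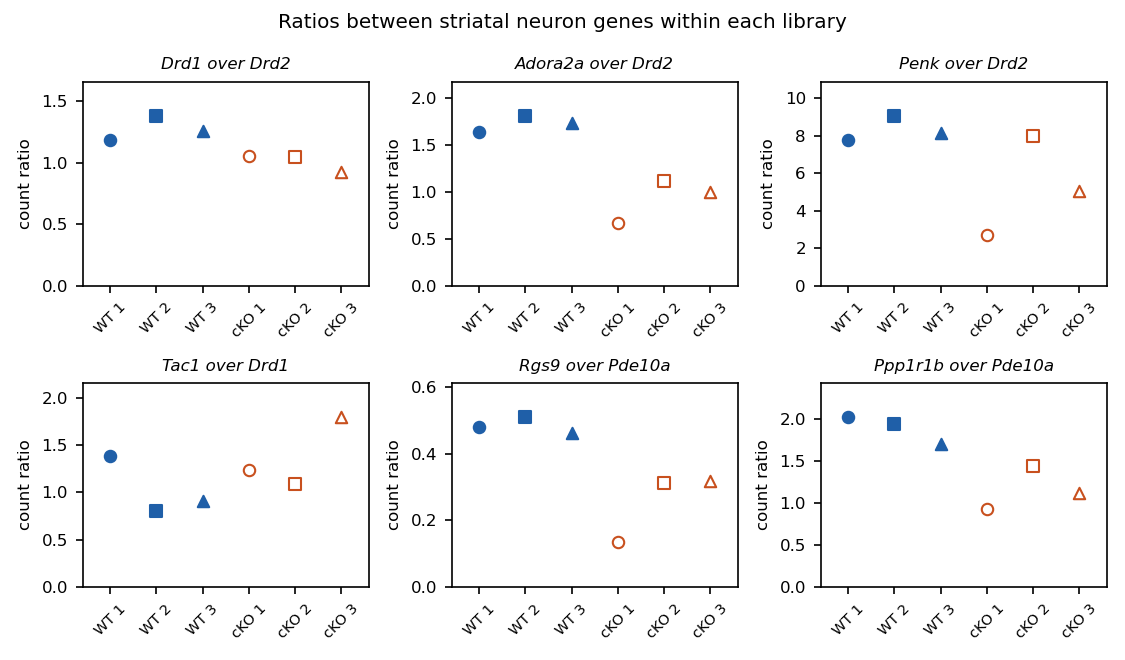
Count ratios of 6 gene pairs in each library (linear axes from 0; filled, wild type; open, cKO). The Drd1 to Drd2 ratio stays between 0.93 and 1.38 in all libraries, whereas Penk over Drd2 and Rgs9 over Pde10a are lowest in cKO replicate 1.

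Of 35 other genes known from striatal projection neurons and their dopamine and opioid signalling, 33 were tested. Their median log2 fold change was -0.59, and 29 of the 33 were negative, against 50.8% of all genes tested. The test called 2 lower and 1 higher, against 0.463% and 1.05% of all genes. In 11 the groups did not overlap in the lower direction, against 12.4% of all genes. DESeq2 called 11 lower and 1 higher, against 2.39% and 3.42% of all genes. Pdyn, the precursor of dynorphins of the direct pathway, had 28.5, 74.8 and 35.0 CPM in wild type against 6.39, 7.71 and 6.61 CPM in cKO (log2 fold change -2.74 with SE 0.37 and adjusted p = 0.0264). The adrenergic receptor Adra2c had 27.3, 53.7 and 30.4 CPM in wild type against 6.39, 8.60 and 9.39 CPM in cKO (log2 fold change -2.18 with SE 0.28 and adjusted p = 0.0237). Both fell, and their cKO libraries lay far below the lowest wild type library. Gpr155, an integral membrane protein, rose in cKO, with 64.1 to 91.7 CPM in wild type against 131 to 157 CPM (log2 fold change 0.86 with SE 0.14 and adjusted p = 0.045). The calls of Pdyn and Adra2c held without wild type replicate 1 or 2 and ended without wild type replicate 3 or any cKO library, where adjusted p lay between 0.0623 and 0.159; that of Gpr155 held only without wild type replicate 2. Of 8 genes of cholinergic neurons and dopamine afferents 6 were tested, 5 of them negative and 0 called by edgeR. In the lower direction 3 had an unadjusted p below 0.05 and DESeq2 called 2, against 8.81% and 2.39% of all genes.

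Markers of other tissues beside the hippocampus moved across the same libraries. The summed level of the 31 striatal genes was 2197, 7300 and 3645 CPM in wild type against 1566, 1903 and 1504 CPM in cKO, and they took 0.719% of all counts in wild type replicate 2. The 18 choroid plexus and ependymal markers were all negative and 0 were called, with a summed level of 7886 to 15932 CPM in wild type against 1013 to 8973 CPM in cKO. For each of the 18, wild type replicate 2 was highest and cKO replicate 1 lowest, as for many of the striatal genes. The 12 oligodendrocyte markers were all negative, 0 called by edgeR, at 14545 to 19410 CPM in wild type against 11175 to 14779 CPM in cKO. Of these 12, 6 had an unadjusted p below 0.05 and DESeq2 called 2 lower, against 8.81% and 2.39% of all genes. Wild type replicate 2 was the highest wild type library for 3 of the 19 hippocampal field markers, but as a set these 19 went the other way there. Their median log2 fold change was 0.23, with 6 negative, 13 positive and 1 called (Wfs1, lower). At an unadjusted p below 0.05, 2 were lower and 2 higher, and DESeq2 called 1 lower and 2 higher. Over the 4 libraries 3 were called lower, against 0.239% of all genes. Their summed level was 715 to 1219 CPM in wild type against 968 to 1233 CPM in cKO. The 14 markers of thalamus and habenula had 4 negative and 0 called, with 733 to 1854 and 1454 to 1876 CPM and wild type replicate 2 lowest. Among them 0 had an unadjusted p below 0.05 and DESeq2 called 0, as for the choroid plexus and ependymal markers. Of 14 neocortical markers 9 were negative and 0 called by edgeR (1120 to 1318 and 884 to 1028 CPM). In the lower direction 3 of the 14 had an unadjusted p below 0.05 and DESeq2 called 2. Of 8 lateral septum markers 3 were negative and 0 called by edgeR (243 to 302 and 321 to 374 CPM). Of all 14916 genes tested, 8.81% were lower and 1652 genes were higher at an unadjusted p below 0.05. By edgeR 0.463% of all genes were called lower and 1.05% higher, and by DESeq2 2.39% and 3.42%. At that unadjusted limit 1 septum marker was lower and 2 higher, and DESeq2 called 1 higher. The part of such tissue content in the levels of the striatal genes was not tested.

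**Figure D5:**
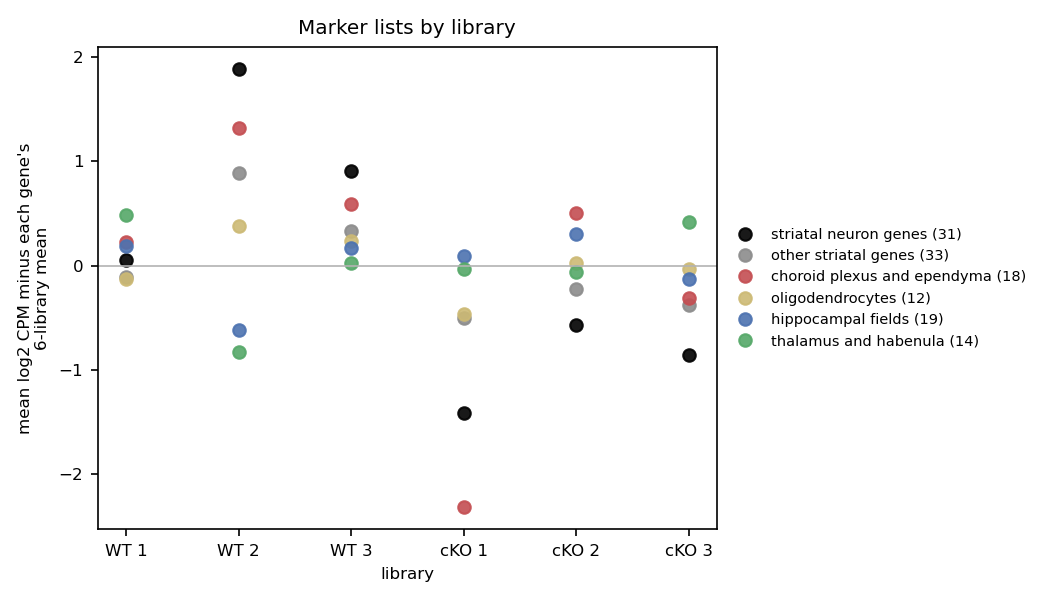
Mean over each marker list of log2 CPM minus each gene's mean over the 6 libraries, by library. Striatal genes and choroid plexus and ependymal markers are highest in wild type replicate 2 and lowest in cKO replicate 1, whereas hippocampal and thalamic markers are lowest in wild type replicate 2.

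By position the 31 genes lay on 17 chromosomes and no 2 of them were neighbours, the closest being Adora2a and Gng7, 5.61 Mb apart on chromosome 10. Exons of some of them overlap genes on the opposite strand. For Rarb 1793 of 5265 exonic bases overlap Top2b, and for Ppp1r1b 460 of 2928 overlap 1700003D09Rik. The sources used here do not say whether the library kit kept strand, and reads in these stretches could come from either gene.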

How the data were processed

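Per the labels' protocols, a Qiagen kit gave the RNA and a TruSeq kit the libraries. The authors deposited whole-number counts per gene symbol, per the file headers. Tools in the submitters' processing notes are DESeq2 1.6.3, HTSeq 0.6.1p1, TopHat2 2.0.10 and cutadapt, with build mm10; the sources used here give no annotation or strand setting. The deposited table also holds normalised counts, a signal that equals counts over 1 size factor per library, per the file headers and the values, and the authors' deposited log2 fold changes, p-values and adjusted p-values. Every sample column was matched (0 unmatched).

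The main test on the deposited counts was edgeR 4.0.16 under R 4.3.3 (quasi-likelihood, minimum count 10, TMM, 14916 genes, Benjamini-Hochberg, threshold 0.05), with no block; 4993 of 24421 genes were at 0 everywhere. CPM uses TMM library sizes. SE comes from the log2 fold change and F. Log2 CPM for profiles has a prior count of 2. Alternatives were DESeq2 1.42.0, limma-voom (limma 3.58.1), other scalings and filters, a replicate block and left-out libraries. The test was checked on simulated counts. A chi-square of at least 10.66 per degree of freedom between any 2 libraries showed no duplicates. Positions and exon lengths come from the RefSeq and GENCODE annotations of GRCm38, the assembly also called mm10. The members and lists were chosen with earlier results of these data known. All 31 genes are named; of the other striatal list the called genes are named. Some results are not reported here.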

Additional observations from a re-analysis of the deposited data

How the results depend on the processing

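Leaving out 1 library gave 12 to 147 called genes in place of 225, 0 to 3 of the 31 striatal genes called lower in place of 2, and 0 to 2 of the other striatal genes in place of 2. The count of the 31 was 0 without any library other than wild type replicate 2, where only 0.00662% to 0.119% of all genes were called lower. In those fits 26 to 31 of the 31 had an unadjusted p below 0.05, and so did 2120 to 2848 of all genes tested, in either direction. DESeq2 called 869 genes, 23 of the 31 and 11 of the others. The fit over 4 libraries called 111 genes and 4 of the 31. Of the 31, limma-voom called 1 (0.382% of all genes called lower), the fit with no low-count filter 8 (0.474%) and the fit with the replicate block 16 (0.523%), which also called 5 of the other striatal genes. No label says that a replicate number marks a litter or batch, so the numbers were not taken as pairs. Same-numbered libraries had correlations of 0.219, 0.425 and 0.079 of their deviations from the group means. Wild type replicates 1 and 2 each correlated best with their own number. Wild type replicate 3 was at 0.079 with its own number and at 0.080 with cKO replicate 1. Scaling by size factors or the upper quartile and a filter of mean CPM of 1 each left 2 of the 31 called. For single genes 1 of the alternatives reversed a direction, Rasd2 without wild type replicate 2 (log2 fold change 0.00525), and its values without 1 library ran from -0.74 to 0.00525. The causes were not tested. Low counts of Sh3rf2, Ido1, Slc10a4 and Ptpn7 in cKO limit the precision of their fold changes.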

Other observations

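Genes outside the lists whose within-genotype profile over the 6 libraries was most like the mean of the 31 striatal genes were Pde4b, Yae1d1, Parp12, Man2a2, 9930021J03Rik, Atp8b1, Olfml3, Angel2, Tead2 and Sorbs3. Their Pearson correlations, after the mean of each genotype was removed, ran from 0.9985 to 0.9946 among 14224 genes ranked, and none was called by edgeR. Pde4b, a phosphodiesterase, had 81.5, 126 and 99.3 CPM in wild type against 77.9, 92.8 and 88.5 CPM in cKO, a far narrower range than the striatal genes. With 4 free values per gene these correlations are a description only. Of the 31 genes 14 had a correlation above 0.95 with the same mean, which contains them, led by Drd1 and Drd2 at 0.9987, and Ecel1 was lowest at 0.4506.

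Among the 236 genes outside the set with a correlation above 0.95, some with a wide ratio of wild type replicate 2 to 1 were looked up after their values were seen. The ratio was 6.39 for the endothelial lipase gene Lipg, 4.92 for Morn5, 4.71 for Barx2, 4.42 for the integrin Itga5 and 4.31 for Dlx6, a homeobox gene of striatal progenitors. Lipg had 0.73, 4.65 and 1.74 CPM in wild type against 0.37, 0.70 and 0.46 CPM in cKO. None of these passed the edgeR test.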
